A study of Homo sapiens with 27 samples.

Results

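RAN and 9 nuclear transport receptors were followed through the RNA Frac-Seq of TPR-depleted U2OS cells. They are the exportins XPO1, CSE1L, XPO5 and XPOT, the importins KPNB1, TNPO1, IPO5 and IPO7, and the adaptor importin α KPNA2. The members were taken by Ensembl gene ID with the version removed. All 10 were found among the 34464 genes of the deposited table, and all 10 were among the 14611 genes that passed the filter on low values (a mean above 1 FPKM, mitochondrial genome left out). FPKM is the fragment number scaled to transcript length and library depth, so levels of different genes can be compared per length.

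U2OS is a human osteosarcoma line. Cultures received lentiviral shRNA for 5 days, either a control shRNA or 1 of 2 shRNAs against TPR, a protein of the nuclear basket of the nuclear pore, called TPR A and TPR D. Each of the 3 shRNAs had 3 replicate cultures. From each culture 10% of the cells gave a total library and the rest was split into a nuclear and a cytoplasmic (cytoplasmic/ER) library, which makes 9 cultures and 27 libraries of poly(A)+ RNA. All cells carried an shRNA vector, the controls too, and all came from 1 cell line. The column names of the replicate 1 libraries follow 1 style and those of replicates 2 and 3 another, so values are also given within these sets. The sources used here do not say what this naming marks or how the replicate cultures were separated, so p-values measure the spread between these samples.

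Transport receptors of the karyopherin family carry proteins and some RNAs through the nuclear pore. The small GTPase Ran gives them direction. Importins release their cargo when they bind Ran-GTP in the nucleus, whereas exportins bind cargo together with Ran-GTP and release it in the cytoplasm after GTP hydrolysis. Bulk poly(A)+ mRNA leaves by another receptor, NXF1, which does not depend on Ran, and what was measured here is the transcript of each receptor gene, not the protein or its activity.

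TPR itself was lower in every depleted library. Its level in total RNA was 28.2, 25.7 and 25.3 FPKM in control replicates 1, 2 and 3, between 3.44 and 4.70 FPKM with TPR A and between 3.23 and 6.01 FPKM with TPR D. With both shRNAs together, TPR fell by 2.51 on the log2 scale in total (SE 0.31, adjusted p = 0.000355), by 3.66 in nuclear and by 2.63 in cytoplasmic RNA. Of 6 osteoblast and mesenchymal markers, 5 passed the filter, with VIM at a median of 1469 FPKM and SPARC at 464 FPKM, and COL1A2 was low (median 0.217 FPKM). Of 5 matched markers of epithelial, blood and endothelial cells only EPCAM passed (median 3.88 FPKM), and their summed level was 2.89 to 6.02 FPKM in control, 2.64 to 8.49 in TPR A and 1.69 to 7.77 FPKM in TPR D libraries. In bulk RNA such as this, fewer cells with a transcript and less transcript per cell cannot be told apart.

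The nuclear and total libraries of control replicate 2 went against their labels. Transcripts of the mitochondrial genome took 21.8% of all FPKM in the library labelled nuclear, against 0.774 to 2.42% in the other 8 nuclear libraries, and 0.738% in the library labelled total, against 15.8 to 24.7% in the other 8 total libraries. The former was closest to the mean total profile and the latter to the mean nuclear profile, while each of the other 25 libraries was closest to the mean of its own fraction. Both were kept where their labels put them, and results are also given without control replicate 2. From the steps between low values, a gene with 1 kb of effective transcript at 1 FPKM held 31.4 to 86 reads, depending on the library, so counting error was small at the level of these members.

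The members spanned a wide range of levels. In the cytoplasmic fraction of control cells, in which no library was in doubt, the level of RAN was 1429 ± 299 FPKM (SD, n = 3). RAN was followed by KPNA2, which links classical import signals to importin β, at 377 ± 87.5 FPKM, by KPNB1, importin β itself, at 235 ± 16.6 FPKM, and by CSE1L, the exportin that returns importin α to the cytoplasm, at 136 ± 17.7 FPKM. The ranges of these 4 members did not overlap with their neighbours in the order. XPO5, the exportin of microRNA precursors, stood at 81.7 ± 18.5 FPKM and overlapped with XPO1, the receptor for leucine-rich export signals, at 65.9 ± 5.68 FPKM. TNPO1, which imports hnRNP proteins, IPO7 and IPO5, both importins with ribosomal proteins among their cargo, lay at 56.1 ± 1.66, 49.0 ± 8.31 and 45.7 ± 7.0 FPKM. TNPO1 did not overlap with XPO1 above it, but IPO7 overlapped with both TNPO1 and IPO5. XPOT, the tRNA exportin, was lowest at 27.8 ± 5.69 FPKM, below every IPO5 value. By the mean over all 27 libraries RAN ranked 137 and XPOT 3760 among the 14611 genes, so even the lowest member was in the upper part of the list.

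**Figure D1:**
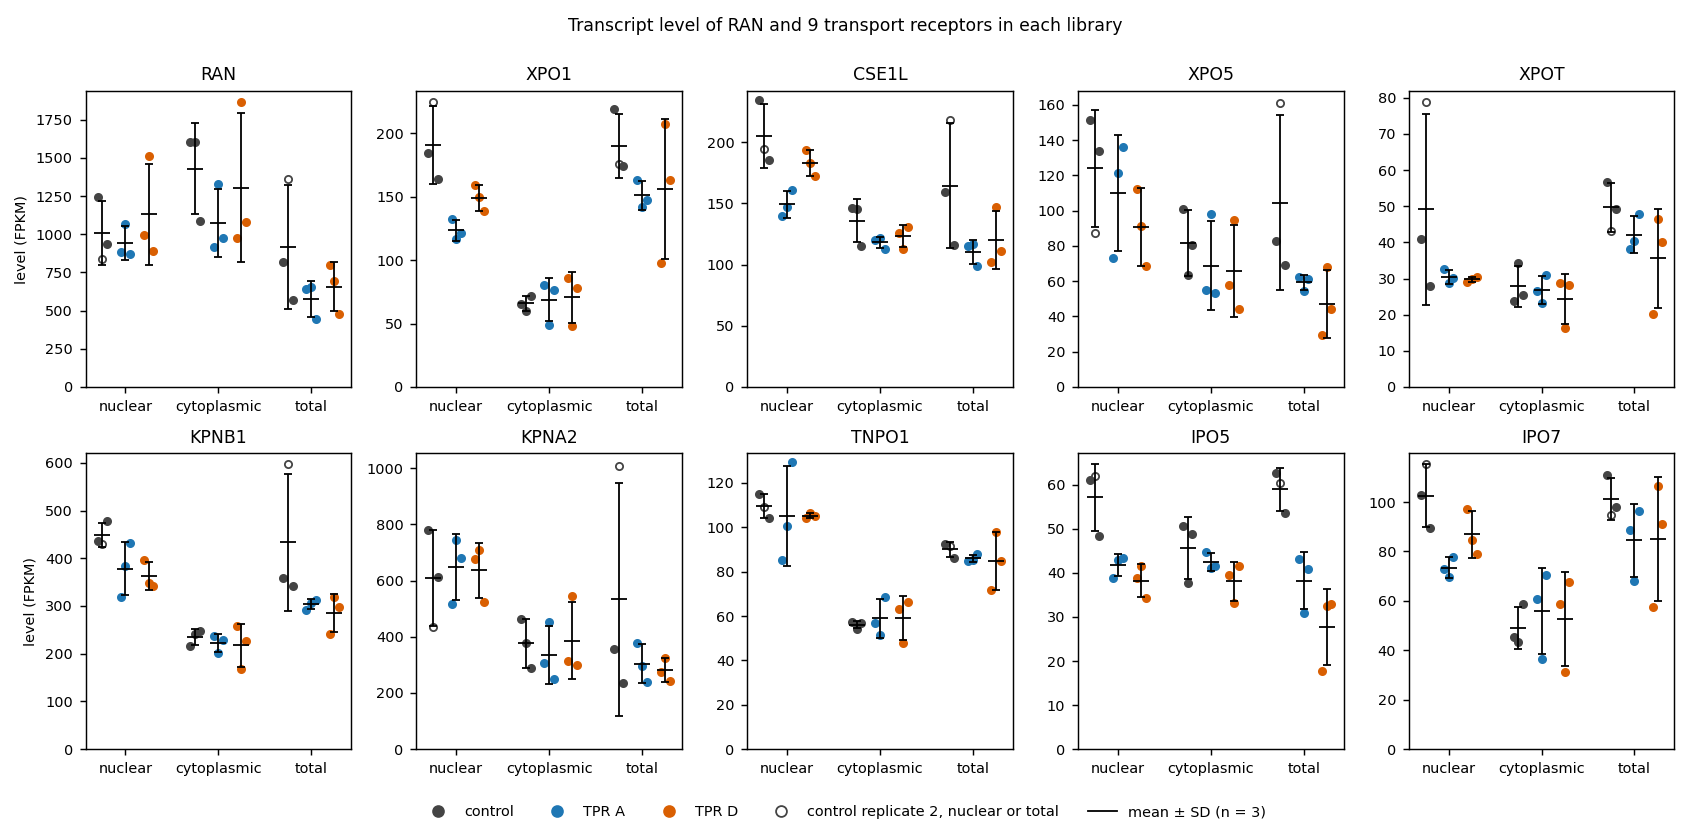
Level of each member in FPKM (vertical axes, linear, from 0) in every library, grouped by fraction and coloured by shRNA, with the mean ± SD of 3 replicates; open circles are the 2 control libraries that went against their labels. XPO1 and IPO7 lay higher in the nuclear than in the cytoplasmic fraction, and the open circle of KPNA2 in total RNA (1008 FPKM) stood far above the other total libraries.

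The fraction in which the receptor transcripts lay was compared first in control cells, to give the background against which depletion is read. Most receptor transcripts were higher per library in nuclear than in cytoplasmic poly(A)+ RNA, and RAN was the only member with a value below 0. Both fractions were scaled separately, so these differences are relative to other transcripts in the same fraction and do not give the share of molecules in the nucleus. Of the 10 members 5 were called higher in nuclear RNA and 0 higher in cytoplasmic RNA, where 20.2% and 19.2% of all 14611 genes were called in these directions. At unadjusted p under 0.05 limma gave 6 members higher in nuclear and 0 higher in cytoplasmic RNA. Over all 14611 genes these counts were 3526 and 3458. The median difference of the members was 0.73 on the log2 scale, and that of all genes was -0.01.

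XPO1 had the largest difference of the members. Its nuclear level was 185, 225 and 164 FPKM in control replicates 1, 2 and 3, and its cytoplasmic level was 65.7, 60.3 and 71.6 FPKM. The groups did not overlap, and the difference was 1.56 on the log2 scale (SE 0.25, adjusted p = 6.08e-05). IPO7 was 102.9, 115 and 89.6 FPKM in nuclear and 45.3, 43.3 and 58.6 FPKM in cytoplasmic RNA, a difference of 1.11 (SE 0.27, adjusted p = 0.00264). TNPO1 differed by 1.00 (SE 0.16, adjusted p = 8.64e-05) and KPNB1 by 0.97 (SE 0.19, adjusted p = 0.000434). CSE1L had the smallest of the called differences, 0.63 (SE 0.18, adjusted p = 0.00818). All 5 were also called without control replicate 2, where XPO1 differed by 1.37 and IPO7 by 0.93 (adjusted p = 0.0452). CSE1L was not called without control replicate 1 (0.59, adjusted p = 0.0694) or within replicates 2 and 3 (adjusted p = 0.126), and IPO7 was not called within replicates 2 and 3 (1.05, adjusted p = 0.0572).

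The remaining members did not pass the threshold in this fit. XPOT differed by 0.74 (SE 0.31, adjusted p = 0.0615), KPNA2 by 0.71 (SE 0.36, adjusted p = 0.122) and XPO5 by 0.63 (SE 0.35, adjusted p = 0.158). IPO5 was close to even between the fractions, with 61.1, 61.9 and 48.3 FPKM in nuclear and 50.6, 37.7 and 48.9 FPKM in cytoplasmic RNA and a difference of 0.36 (SE 0.20, adjusted p = 0.161). RAN was 1244, 840.3 and 937 FPKM in nuclear and 1601, 1601 and 1084 FPKM in cytoplasmic RNA, a difference of -0.46 (SE 0.30, adjusted p = 0.226). Without control replicate 2 the difference of KPNA2 was 0.95 and passed (adjusted p = 0.038), while that of XPOT was 0.49 and that of RAN -0.26.

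The nuclear and the cytoplasmic library of a culture came from the same cells. When they were paired by culture, 9 members passed, where 55.1% of all genes were called in either direction. The members added were KPNA2 (adjusted p = 0.0206), XPOT (0.0189), XPO5 (0.0473) and RAN, the only member called higher in cytoplasmic RNA (0.0287). IPO5 did not pass (adjusted p = 0.098). The paired fit kept control replicate 2, whose nuclear library went against its label. RAN was -0.88 in that culture, against -0.33 and -0.18 in control replicates 1 and 3. KPNA2 was 0.25 in it, against 0.78 and 1.11. No paired fit without that culture was made.

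Over all cultures most members kept 1 sign, and after scaling for library size every exception was in a depleted culture. XPO1, CSE1L, KPNB1, KPNA2, TNPO1 and IPO7 had a higher nuclear than cytoplasmic level in 9 of 9 cultures, XPO5 and XPOT in 8 and IPO5 in 6. After scaling, IPO5 was above 0 in 3 of 3 control cultures but below 0 in 3 of the 6 depleted cultures. Its scaled difference in control replicate 3 was only 0.02. As deposited, its nuclear level in that culture was below the cytoplasmic level (48.3 against 48.9 FPKM). The sign of IPO5 thus does not separate control from depleted cultures. RAN was higher in cytoplasmic RNA in 8 of 9 cultures, with a median difference of -0.23. XPO1 ranged from 0.67 to 1.94 over the 9 cultures and remained the member with the largest median difference, 1.23.

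**Figure D2:**
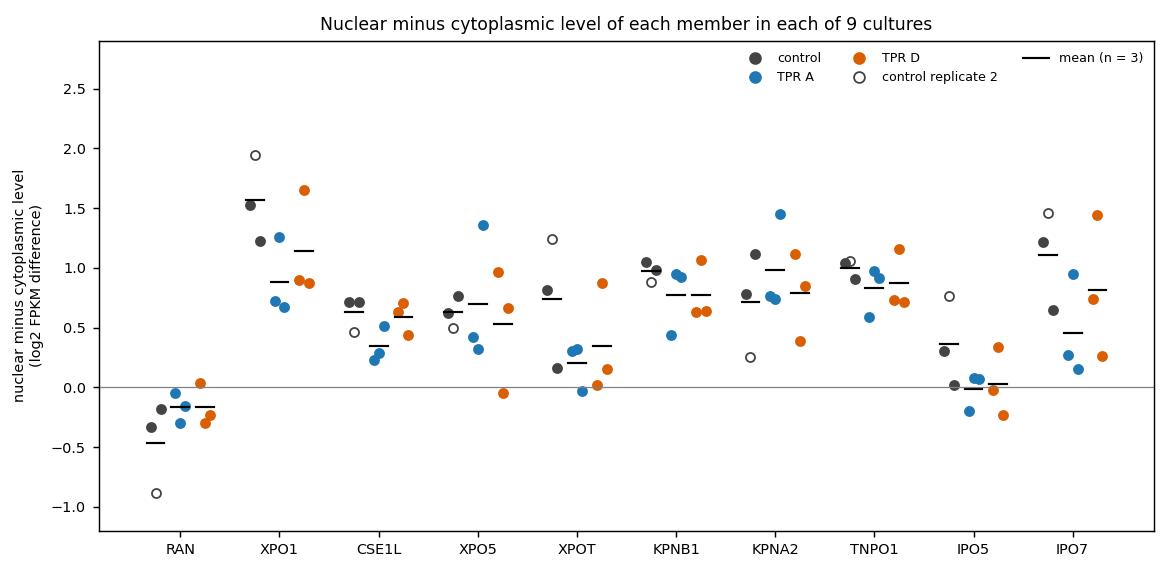
Nuclear minus cytoplasmic level (log2 FPKM difference, vertical axis) of each member in each of 9 cultures, coloured by shRNA, with short lines at the mean of 3 cultures and control replicate 2 as an open circle. RAN lay below 0 in 8 cultures, 6 members lay above 0 in all 9, and the 3 shRNAs overlapped for most members.

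The same comparison was made for a list of other genes of the transport system, 27 of which passed the filter. Of these 10 were called higher in nuclear and 4 higher in cytoplasmic RNA, beside 20.2% and 19.2% of all genes. The count was 14 in all, 7 without control replicate 1 and 7 within replicates 2 and 3. Over all genes it was 5750, 3689 and 3225. The highest was RANBP2, a Ran-binding nucleoporin of the cytoplasmic filaments of the pore, with 28.4 ± 1.66 FPKM in nuclear and 2.59 ± 0.566 FPKM in cytoplasmic RNA (SD, n = 3) and a difference of 3.46 (adjusted p = 6.22e-07). The lowest was RANGRF, a small Ran-binding protein, with 17.5 ± 2.10 and 44.7 ± 6.56 FPKM and a difference of -1.31. Of the 7 Ran-cycle genes 3 were called higher in cytoplasmic RNA and 1, RANBP2, higher in nuclear RNA. Of the 8 further importin β-like genes 4 were called higher in nuclear and 0 in cytoplasmic RNA.

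**Figure D3:**
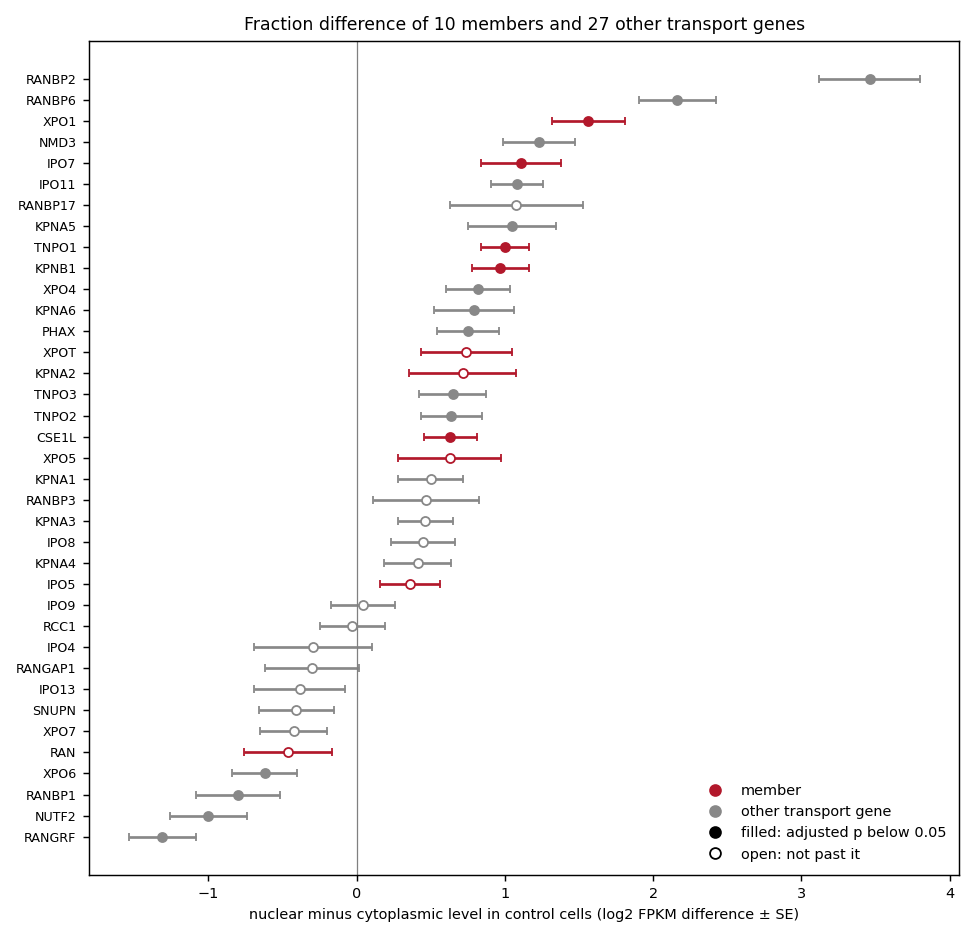
Nuclear minus cytoplasmic level in control cells (horizontal axis, log2 FPKM difference ± SE) for the 10 members and 27 other transport genes in order of the difference; filled points passed an adjusted p of 0.05. RANBP2 stood at 3.46 and RANGRF at -1.31, and RAN at -0.46 was the only member below 0.

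The effect of TPR depletion was then asked in total RNA. IPO5 was lower in all 6 TPR-depleted total libraries than in all 3 control libraries, and it was the only member called. All 10 members had values below 0, but 9 of them did not pass, and for RAN, KPNA2, KPNB1, CSE1L and XPO5 the difference was smaller without control replicate 2. Of the 10 members 0 were called higher and 1 lower, against 1.14% of all genes called in either direction. At unadjusted p under 0.05 limma gave 4 members lower. Of all 14611 genes 1196 were lower at this level, and 16.1% passed it in either direction. The median change of the members was -0.42, beside -0.01 over all genes and -0.08 over genes with a mean above 5 FPKM. Without 1 culture the member median ranged from -0.59 to -0.26. The value nearest 0, -0.26, was that without control replicate 2, whose total library went against its label.

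IPO5 was 62.8, 60.5 and 53.5 FPKM in control replicates 1, 2 and 3, 43.0, 31.0 and 40.8 FPKM with TPR A, and 17.7, 32.5 and 32.9 FPKM with TPR D. Every depleted library was below every control library, and the lowest was TPR D replicate 1. With both shRNAs together IPO5 fell by 0.82 on the log2 scale (SE 0.17, adjusted p = 0.0232), a level 1.76-fold lower than in control cells. With TPR D it fell by 1.06 (SE 0.20, adjusted p = 0.011). With TPR A the change was -0.57 and did not pass (SE 0.20, adjusted p = 0.214). The difference between the shRNAs was 0.49 (SE 0.20) and did not pass (adjusted p = 0.518). Both shRNA comparisons share the control cultures. The size of the IPO5 change hardly moved without control replicate 2 (-0.83 for both shRNAs, adjusted p = 0.0916, and -1.07 for TPR D, adjusted p = 0.0335). The call for both shRNAs was also lost without control replicate 1 (-0.76, adjusted p = 0.119), without TPR A replicate 1 (-0.86, 0.0569) or without TPR A replicate 2 (-0.74, 0.0943), and the call for TPR D was lost without control replicate 1 (-1.01, 0.0795) or without TPR D replicate 1 (-0.77, 0.10). When the fit held only the total libraries, neither call passed (adjusted p = 0.214 and 0.208), nor did they within replicates 2 and 3 (-0.66 and -0.72, adjusted p = 0.323 and 0.355).

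XPO5 had a change of similar size but a larger error. It was 83.0, 161 and 69.3 FPKM in control, 62.2, 54.4 and 61.5 FPKM with TPR A, and 29.8, 67.8 and 44 FPKM with TPR D. The depleted libraries were all below the controls, with a change of -0.85 (SE 0.30, adjusted p = 0.162) that was -0.52 without control replicate 2. KPNB1 was also lower in each depleted library, at 359, 598 and 342 FPKM in control, 293 to 313 FPKM with TPR A and 242 to 318 FPKM with TPR D. Its change of -0.44 (SE 0.16, adjusted p = 0.183) was -0.22 without control replicate 2. Thus 3 members (IPO5, XPO5 and KPNB1) had no overlap with control in total RNA, as deposited and after scaling for library size, where every scaled depleted library was below every control library for 2.98% of all genes.

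The value of KPNA2 in total RNA rested on 1 library. KPNA2 was 356, 1008 and 237 FPKM in control, 378, 294 and 239 FPKM with TPR A, and 275, 326 and 242 FPKM with TPR D. Outside control replicate 2 the groups overlapped almost fully, and the change went from -0.54 (SE 0.31, adjusted p = 0.400) to 0.03 without that replicate. RAN was 821, 1359 and 569 FPKM in control, 641, 652 and 442 FPKM with TPR A, and 799, 695 and 479 FPKM with TPR D, and its change of -0.44 (SE 0.26, adjusted p = 0.406) was -0.14 without control replicate 2. CSE1L changed by -0.41 (SE 0.16, adjusted p = 0.195), and by -0.22 without it. For these members the control library labelled total was the highest of the total libraries.

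XPO1 was 219, 176 and 174 FPKM in control, 164, 142 and 148 FPKM with TPR A, and 98.0, 207 and 163 FPKM with TPR D. The highest TPR D library was above 2 of the 3 control libraries, and the change was -0.26 (SE 0.21, adjusted p = 0.554). XPOT at -0.33 (SE 0.27) and IPO7 at -0.21 (SE 0.23) did not pass either. TNPO1 had the smallest change of the members, -0.01 (SE 0.14, adjusted p = 0.977), with 86.1 to 92.6 FPKM in control, 84.9 to 87.7 FPKM with TPR A and 71.9 to 98.1 FPKM with TPR D. Within replicate 1 the changes of XPO1, XPOT and IPO7 were -0.74, -0.97 and -0.58, and within replicates 2 and 3 they were -0.03, -0.01 and -0.03.

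By shRNA, 0 members were called in total RNA with TPR A (0.821% of all genes) and 1 with TPR D (0.753%). At unadjusted p under 0.05 limma gave 3 members lower with TPR A and 3 with TPR D. Of all 14611 genes 854 and 1163 were lower at this level. In either direction these were 12.6% and 14.6% of all genes. The member medians were -0.44 and -0.41, and both were -0.28 without control replicate 2.

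**Figure D4:**
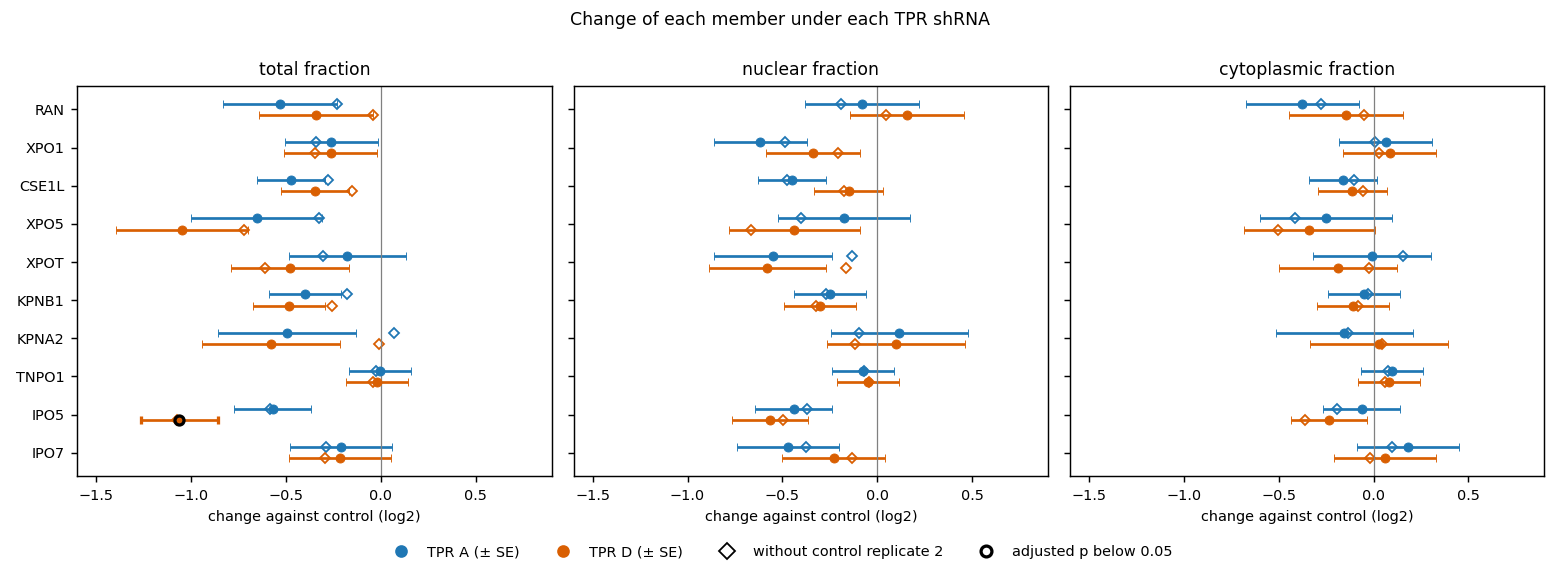
Change of each member against control (horizontal axes, log2, ± SE) in total, nuclear and cytoplasmic RNA with TPR A (blue) and TPR D (orange); diamonds give the change without control replicate 2 and the black ring marks an adjusted p below 0.05. IPO5 with TPR D in total RNA (-1.06) was the only ringed point, and the diamonds of KPNA2 in total RNA lay near 0.

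In nuclear RNA no member passed the threshold. IPO5 again had every depleted library below every control library. It was 61.1, 61.9 and 48.3 FPKM in control, 38.8, 42.9 and 43.4 FPKM with TPR A and 38.8, 41.6 and 34.2 FPKM with TPR D, a change of -0.50 (SE 0.17, adjusted p = 0.224). XPO1 was 185, 225 and 164 FPKM in control, 132, 117 and 122 FPKM with TPR A and 159.6, 149.6 and 139 FPKM with TPR D, a change of -0.48 (SE 0.21, adjusted p = 0.375). KPNB1 was 437, 430.2 and 478 FPKM in control, 319, 384 and 431.8 FPKM with TPR A and 396, 349 and 343 FPKM with TPR D, a difference of -0.28 (SE 0.16) that did not pass. As deposited, its TPR A replicate 3 was above control replicate 2. After scaling for library size, IPO5, XPO1 and KPNB1 had no overlap with control, which on that scale held for 3.24% of all genes. XPOT at -0.56 (SE 0.27, adjusted p = 0.415) was the member with the lowest value, and it was -0.15 without control replicate 2, whose library labelled nuclear held 78.7 FPKM of XPOT against 40.8 and 27.9 FPKM in the other controls. RAN at 0.04 (SE 0.26) and KPNA2 at 0.11 (SE 0.31) were the members above 0, and both were below 0 without control replicate 2 (-0.07 and -0.11).

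In nuclear RNA limma called 0 members for both shRNAs together (0.808% of all genes), 0 for TPR A (0.903%) and 0 for TPR D (0.479%). At unadjusted p under 0.05 there were 3 members lower for both shRNAs, 3 for TPR A and 1 for TPR D. Of all 14611 genes 849, 868 and 682 were lower at this level. In either direction these were 11.8%, 12.2% and 9.13% of all genes. The median change of the members was -0.30, beside -0.02 over all genes.

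In cytoplasmic RNA the member values lay closest to 0. They ranged from -0.29 (XPO5, SE 0.30) to 0.12 (IPO7, SE 0.23), with a median of -0.09 beside -0.02 over all genes. IPO5 was 50.6, 37.7 and 48.9 FPKM in control, 44.7, 41.0 and 41.6 FPKM with TPR A and 39.6, 33.2 and 41.5 FPKM with TPR D. Control replicate 2 lay within the depleted libraries, and the change was -0.15 (SE 0.17, adjusted p = 0.836). RAN was 1601, 1601 and 1084 FPKM in control, 914, 1331 and 977 FPKM with TPR A and 974, 1866 and 1078 FPKM with TPR D, groups that overlapped. No member had all depleted libraries below all control libraries, which held for 2.89% of all genes. With limma 0 members were called for both shRNAs (0.643% of all genes), 0 for TPR A (0.623%) and 0 for TPR D (0.575%), and 0 reached an unadjusted p under 0.05 in any of them (11.4%, 11.6% and 9.42% of all genes).

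The distribution between nucleus and cytoplasm was the main readout of the design. The N/C change, the nuclear minus cytoplasmic difference in depleted cells minus that in control cells, passed for no member. Nor did any member pass in 20 other limma settings, pairing by culture among them. Over these settings the lowest adjusted p of XPO1 for both shRNAs was 0.562. XPO1 had the lowest value. Its nuclear minus cytoplasmic difference was 1.52, 1.94 and 1.23 in the control cultures, 0.73, 1.26 and 0.67 with TPR A and 0.90, 1.65 and 0.87 with TPR D, so the groups overlapped and the N/C change was -0.55 (SE 0.30, adjusted p = 0.999). IPO7 and XPOT had -0.47 each (SE 0.33 and 0.38), and IPO5 had -0.36 (SE 0.25). XPO5 was at -0.01 (SE 0.42). RAN at 0.30 (SE 0.37) and KPNA2 at 0.17 (SE 0.44) were above 0, where the difference of RAN was -0.33, -0.88 and -0.18 in control and -0.30 to 0.04 in the depleted cultures. The SE of the members' N/C changes was 0.20 to 0.44, beside a median of 0.36 over all genes. In made data this fit for both shRNAs recovered 16 of 100 N/C changes of 1 log2 unit. Those changes were added to genes drawn from all kept genes, with independent noise in each library. The rate for the members was not measured, and changes of this size could be missed.

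For the N/C change limma called 0 members and 0 genes in all for both shRNAs (0% of genes), TPR A (0%) and TPR D (0%). At unadjusted p under 0.05 there were 0 members in each, and 1.72%, 1.47% and 0.821% of all genes. The member median was -0.18, beside 0.00 over all genes. Without control replicate 2 the value of XPO1 was -0.36 and that of RAN 0.09.

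Among the 27 other transport genes few were called after depletion, and each called gene was lower. RCC1, the guanine exchange factor that makes Ran-GTP on chromatin, was 74.4, 148 and 77.2 FPKM in control total RNA, 38.7, 40.7 and 38.1 FPKM with TPR A and 40.4, 67.5 and 58.8 FPKM with TPR D. Every depleted library was below every control, and RCC1 fell by 0.97 with both shRNAs (adjusted p = 0.0151) and by 1.21 with TPR A (adjusted p = 0.0111). Without control replicate 2 these were -0.68 (adjusted p = 0.169) and -0.92 (adjusted p = 0.0704), and the TPR A call was also lost without any 1 of the TPR A cultures (highest adjusted p = 0.0904). Among the members and the other transport genes, only RCC1 and IPO5 were called in total RNA for the mean of both shRNAs. Neither was called there with each shRNA, since RCC1 was not called with TPR D and IPO5 not with TPR A. For RCC1, TPR A minus TPR D was -0.49 in total and -0.71 in cytoplasmic RNA (limma, adjusted p = 0.607 and 0.213).

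TNPO2, the paralog of TNPO1, and XPO7, an exportin with a broad range of cargo, were called with TPR D. TNPO2 was 31.7, 50.2 and 33.9 FPKM in control total RNA and 11.3, 21.7 and 17.9 FPKM with TPR D, a fall of 1.12 (adjusted p = 0.0107). XPO7 was 35.4, 25.4 and 33.8 FPKM in control total RNA and 9.26, 19.8 and 14.0 FPKM with TPR D, a fall of 1.11 (adjusted p = 0.0201). In nuclear RNA with TPR D, TNPO2 fell by 0.93 (adjusted p = 0.044) and XPO7 by 1.2 (adjusted p = 0.0129). For the mean of both shRNAs XPO7 fell by 0.83 (adjusted p = 0.0438). Neither gene was called with TPR A in any fraction. In total RNA TPR A minus TPR D was 1.00 for XPO7 and 0.87 for TNPO2 (limma, adjusted p = 0.0552 and 0.0766). In nuclear RNA it was 0.73 and 0.84 (limma, adjusted p = 0.213 and 0.0845). As deposited, nuclear XPO7 was 12.6 to 23.0 FPKM in depleted and 24.6 to 39.6 FPKM in control libraries. In cytoplasmic RNA XPO7 fell by 1.00 with TPR D (adjusted p = 0.0409). Each of these calls was lost when single cultures were left out. In total RNA with TPR D, XPO7 was called in 5 of 9 fits that each left out 1 culture and not without control replicate 1 or 3 or TPR D replicate 1 or 3 (highest adjusted p = 0.142), and TNPO2 in 6 and not without control replicate 2 or TPR D replicate 1 or 3 (highest 0.0914). In nuclear RNA with TPR D, XPO7 was called in 5 of 9 and not without control replicate 1 or 2 or TPR D replicate 2 or 3 (highest 0.135), and TNPO2 in 0 (highest 0.265). XPO7 was called in 2 of 9 in nuclear RNA for both shRNAs, those without control replicate 3 or TPR D replicate 1, and in 1 of 9 in cytoplasmic RNA with TPR D, that without control replicate 2 (highest 0.244 and 0.3). Within replicates 2 and 3 no call of RCC1, TNPO2 or XPO7 passed. With the replicate number as a block, TNPO3 was called too in total RNA with TPR A (-0.81, adjusted p = 0.041), where replicate numbers of control and TPR A moved together. Under the block these genes had 3 calls instead of 1 in total RNA for both shRNAs, 2 instead of 1 for TPR A and 5 instead of 2 for TPR D. Over all genes the calls rose too, from 166 to 560, from 120 to 378 and from 110 to 461.

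The members differed in how they varied between libraries. After the mean of each fraction was subtracted, the log2 levels of the 45 pairs of members had correlations from -0.47 to 0.91 over 27 libraries (median 0.47), and from -0.52 to 0.91 without the 2 control libraries that went against their labels. The points share libraries and cultures, so these are descriptions. XPO1 and IPO7 were the most alike (r = 0.91), RAN and KPNA2 came next (r = 0.83), and RAN and IPO7 were the least alike (r = -0.47).

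Among all genes, the one most like RAN was SNRNP40, a U5 snRNP component (r = 0.96). The gene most like XPO5 was NUP188, a scaffold nucleoporin (r = 0.96), that most like CSE1L was the mitotic checkpoint kinase BUB1 (r = 0.90), and that most like KPNA2 was PA2G4 (r = 0.97). DLG1 was the most similar gene to both XPO1 and IPO7 (r = 0.93 and 0.92), but without the 2 control libraries that went against their labels EML4 was closest to XPO1 (r = 0.94). KPNB1 was most like BMS1, a ribosome biogenesis GTPase (r = 0.95), IPO5 most like the proteasome assembly factor PSMD5 (r = 0.92), XPOT most like DNAJC6 (r = 0.86, but 0.80 and rank 5 without those libraries) and TNPO1 most like CLASP2 (r = 0.82).

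The members have different gene structures, taken from GENCODE release 44 on GRCh37. RAN has the shortest gene, 5.64 kb on the plus strand of chr12:131356582-131362223, with 7 exons in its longest protein-coding transcript. KPNA2 is also compact, 11.7 kb at chr17:66031752-66043480 with 10 exons. IPO5 spans 70.6 kb at chr13:98605912-98676550 on the plus strand and has 29 exons in a longest transcript of 6.0 kb. XPO1 spans 62.7 kb on the minus strand at chr2:61703167-61765876 with 25 exons, and TNPO1 is the longest at 100.4 kb (chr5:72112139-72212560, plus strand). Between these lie IPO7 (chr11:9406199-9469674), KPNB1 (chr17:45726842-45762871), CSE1L (chr20:47662783-47713497) and XPOT (chr12:64798172-64844905) on the plus strand and XPO5 (chr6:43490072-43543775) on the minus strand.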

How the data were processed

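Poly(A)+ RNA of 27 libraries was measured by RNA Frac-Seq. The authors quantified reads with Salmon on GENCODE protein-coding and lncRNA transcripts (hg19), used DESeq2 for their own fold changes, and deposited FPKM per gene. The analysis kept 14611 of 34464 genes, those outside the mitochondrial genome whose mean exceeded 1 FPKM. Values were scaled by median-of-ratios factors, and limma 3.58.1 in R 4.3.3 was fitted to log2(FPKM + 0.1). The 9 groups shared 1 model with an eBayes trend, and p-values were adjusted over the kept genes (Benjamini-Hochberg, threshold 0.05). Levels are printed as deposited, and fold changes are on the log2(FPKM + 0.1) scale. "Both shRNAs" is the mean of the TPR A and TPR D groups. IDs were matched to GENCODE 44 on GRCh37 (32776 matched). Samples were grouped by title. Low values were whole reads within 0.1 in 90.5% of cases. In data made with 100 added changes of 1 log2 unit, limma recovered 54 in total RNA and 16 for the N/C change. In data made with 100 changes of 2 units it recovered 91 and 79. These comparisons were for both shRNAs, on genes drawn from all kept genes with independent noise in each library. Nuclear and cytoplasmic libraries of a culture are paired by the design, and their deviations from group means had correlations of 0.22 to 0.47. Control and TPR A total libraries of the same number had 0.14 to 0.32, over 0.1 in 3 of 3 pairs. The block changed no member call in that comparison. The genes named are the members, TPR, other transport genes past the threshold, the highest and lowest of these between fractions in control cells, and for each member the gene with the highest correlation. The members and lists were chosen with earlier results of these data known. Figures were drawn with matplotlib 3.10.9.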

Additional observations from a re-analysis of the deposited data

Results flagged for a closer look

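TNPO2 and XPO7 differed between the 2 TPR shRNAs in the cytoplasmic fraction. TNPO2 was 28.0, 29.9 and 25.9 FPKM with TPR A and 16.2, 13.3 and 13.1 FPKM with TPR D, beside 22.0 to 27.2 FPKM in control, and TPR A minus TPR D was 0.98 on the log2 scale (limma, SE 0.21, adjusted p = 0.0302). XPO7 was 39.5, 49.3 and 37.8 FPKM with TPR A and 19.7, 20.3 and 23.0 FPKM with TPR D, beside 38.8 to 51.5 FPKM in control, and TPR A minus TPR D was 1.00 (SE 0.23, adjusted p = 0.0392). Without 1 culture the adjusted p rose to as much as 0.242 for TNPO2, called in 2 of 9 such fits (without control replicate 2 or TPR D replicate 1), and 0.259 for XPO7, called in 1 (without control replicate 2). For TNPO3 in cytoplasmic RNA all 3 TPR A libraries were below and all 3 TPR D libraries above the control mean, with differences of -0.39 and 0.13 (SE 0.23 each) that did not pass, and TPR A minus TPR D was -0.51, which did not pass either (adjusted p = 0.527). In the same comparison of the shRNAs, limma called 0 of 40 tests on the members, with 1 at an unadjusted p under 0.05. Same-numbered cytoplasmic libraries of TPR A and TPR D had correlations of 0.40 to 0.60, and the main fit did not pair them.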

How the results depend on the processing

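Each change of each member was recomputed with the values as deposited, other pseudocounts (1 and 0.01), no minimum or a minimum mean of 5 FPKM, no trend, only the fractions compared, a replicate block, pairing by culture, within replicate numbers and without each culture. Of 2640 such values 2482 kept their direction and, where tested, their call. A call was gained or lost for 22, none of them with a change of sign, and 136 uncalled values moved. The 130 values within replicate 1 rest on 1 culture per shRNA, had no test and could not gain or lose a call. The lost and gained calls were those of IPO5 in total RNA and of CSE1L, IPO7, KPNA2, RAN, XPO5 and XPOT between fractions in control cells, and the causes were not tested.

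In total RNA, 0 members instead of 1 were called for both shRNAs without the 2 libraries of control replicate 2 that went against their labels, with only the total libraries, and within replicates 2 and 3, and 0 to 1 without 1 culture. For TPR D there were 0 with only the total libraries and within replicates 2 and 3, and 0 to 1 without 1 culture. Over all genes the TPR D calls were 110 in the main fit, 0 within replicates 2 and 3, and 31 to 114 without 1 culture. Between fractions in control cells 9 members were called with pairing by culture, 3 within replicates 2 and 3, and 4 to 6 without 1 culture.

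Without 1 culture the member median ranged from -0.15 to -0.0475 in cytoplasmic RNA for both shRNAs, from -0.11 to -0.0044 for TPR A and from -0.16 to 0.0059 for TPR D, from -0.34 to -0.17 in nuclear RNA for TPR D, from -0.25 to -0.12, -0.33 to -0.14 and -0.31 to -0.0885 for the N/C change (both shRNAs, TPR A, TPR D), and from 0.69 to 0.82 between control fractions. Within replicate 1 it was -0.0345 (both), -0.0165 (TPR A) and 0.0026 (TPR D) in cytoplasmic RNA, -0.44 in nuclear RNA for TPR A, -0.72 in total RNA for TPR D, -0.39, -0.49 and -0.32 for the N/C change and 0.80 between control fractions. Within replicates 2 and 3 it was -0.25 (TPR A) and -0.35 (TPR D) in nuclear RNA and -0.0796 (both) and -0.11 (TPR A) for the N/C change. Without the 2 control libraries it was -0.17 in nuclear RNA for TPR D and 0.89 between control fractions. With the values as deposited it was -0.0887 in cytoplasmic RNA for TPR A.

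With a replicate block, 560 instead of 166 genes were called in total RNA for both shRNAs, 378 instead of 120 for TPR A and 461 instead of 110 for TPR D, and IPO5 had adjusted p = 0.0143 and 0.00866 (both shRNAs, TPR D). No member call changed under the replicate block. Same-numbered TPR A and TPR D libraries had correlations of 0.40 to 0.60 in cytoplasmic RNA and 0.13 to 0.27 in nuclear RNA. Both were over 0.1 in 3 of 3 pairs, and the main fit did not pair them. In the remaining comparisons same-numbered cultures were not over 0.1 in each pair. Over all genes, counts of calls in total RNA for both shRNAs ranged from 32 to 248 without 1 culture (lowest without control replicate 1, highest without control replicate 3), and were 0 within replicates 2 and 3.

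With 3 cultures per shRNA, N/C changes of 1 log2 unit could be missed. In made data 16 of 100 such changes were recovered, and the rate for the members was not measured. Reads were assigned to protein-coding and lncRNA transcripts, so reads from pseudogenes of RAN or KPNA2 cannot be told apart from those of the genes.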
